A study of Mus musculus with 8 samples.

Results

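RNA:DNA hybrids at 9 genes of abundant nuclear non-coding RNAs were examined, namely *Malat1*, *Neat1*, *Gas5*, *Snhg1*, *Snhg3*, *Snhg8*, *Snhg12*, *Rmrp* and *Rpph1*. The genes were chosen by name, out of 55450 annotated genes, as abundant nuclear RNAs or as hosts of small RNAs. For each gene the annotated body was extended by 1 kb on each side, and every peak that overlapped this window by at least 1 bp was taken. The data came from DRIP-seq, the sequencing of DNA immunoprecipitated with the S9.6 antibody, which pulls down restriction fragments that carry an RNA:DNA hybrid. All cells were Rtel1F/F;WT RNH1-GFP mouse embryonic fibroblasts (MEFs), which carry floxed alleles of the helicase gene *Rtel1* and a GFP fusion of wild-type RNaseH1, an enzyme that degrades the RNA of such hybrids, switched on by doxycycline. Ad-GFP infection kept *Rtel1* (GFP cells) and Ad-Cre infection deleted it (Cre cells). After 48 h the cells received doxycycline at 2 µg/ml for 48 h (DOX) or went without it (mock), giving 4 conditions, GFP mock and GFP DOX, then Cre mock and Cre DOX. Where 4 values are given for the 4 lists, they stand in this order. Each condition had 1 DRIP library, made from 3 pooled immunoprecipitations of 1 line, and 1 peak list. No difference between conditions could therefore be tested, and every comparison is a description of 4 libraries. The deletion of *Rtel1* and the induction of RNaseH1 were not checked here, and neither was the fibroblast identity of the cells, since a peak list holds no expression values. For this line the paper reports immunoblots of RTEL1 and of the RNaseH1 fusion, and PCR for the deletion. A peak in a bulk library does not tell more cells with a hybrid from more hybrid per cell.

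An R-loop forms when a nascent RNA pairs with its template strand and leaves the other DNA strand single. Long transcription units, G-rich non-template strands and stretches that can fold into G-quadruplexes (G4s) favour such structures. *Malat1* and *Neat1* are neighbouring, unspliced, nuclear-retained RNAs. *Malat1* localises to nuclear speckles and *Neat1* is the scaffold of paraspeckles, and the 3′ ends of both are made by RNase P, which cuts before a tRNA-like structure. The RNA subunit of RNase P is the product of *Rpph1*, and the related RNase MRP uses the product of *Rmrp*. *Gas5* and the *Snhg* genes host small nucleolar RNAs (snoRNAs), which such genes usually release from their introns and which are the guides for rRNA modification and processing.

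Peaks were present at 4 of the 9 genes in either GFP list, at 6 in Cre mock and at 8 in Cre DOX. By the same rule 32.6%, 25.5%, 35.0% and 32.0% of all annotated genes had a peak in the 4 lists. The counts of members were 0, 2, 4 and 4 with top-decile peaks. With a −log10 q-value of at least 2 they were 3, 3, 5 and 5. The shares of all genes were not taken under these 2 settings. *Malat1*, *Neat1* and *Gas5* had a peak in all 4 lists, as did 17.2% of all genes. *Gas5* was no longer among them with a −log10 q-value of at least 2 or with equal numbers of peaks from each list, and with top-decile peaks 0 members were. *Snhg1*, *Snhg3* and *Snhg12* had peaks in both Cre lists and in neither GFP list, a pattern seen at 2.3% of all genes and singled out after the values were known. With equal numbers of peaks from each list the pattern held for *Snhg3* and *Snhg12*, and with a −log10 q-value of at least 2 for *Snhg12* alone. With peaks in the top decile of their list it held for none of these 3, and for *Gas5* in their place. *Snhg8* had a peak in Cre DOX alone, *Rpph1* had one in every list but Cre mock, and *Rmrp* had none. Long windows collect more peaks, and the windows of the members differ widely in length. In the class of windows under 5 kb, which holds *Snhg1*, *Snhg8*, *Snhg12*, *Rmrp* and *Rpph1*, members with a peak numbered 1, 1, 2 and 4, and 12.5%, 8.58%, 13.5% and 12.8% of all genes in that class had one. In the class from 5 to 15 kb, which holds *Malat1*, *Gas5* and *Snhg3*, members with a peak numbered 2, 2, 3 and 3, and 31.6%, 25.1%, 35.5% and 30.3% of all genes had one. *Neat1*, with a peak in every list, belongs to the class from 15 to 30 kb, where 50.5%, 39.3%, 55.6% and 49.2% of genes had one.

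The windows together held 62369 bp, of which peaks of the 4 lists covered 12.1%, 26.2%, 33.4% and 35.1%. These shares were 9.1, 22.3, 19.2 and 10.7 times the share of the genome that the same list covered. *Malat1* supplied much of this, and without it the shares were 7.35%, 14.2%, 22.3% and 25.7%. From GFP mock to Cre mock the covered bases of the members went from 7547 to 20861, a ratio of 2.76, while the whole lists differed by a ratio of 1.31. From GFP mock to GFP DOX the members differed by a ratio of 2.17, and the whole lists by 0.885. From Cre mock to Cre DOX the members differed by a ratio of 1.05, and the whole lists by 1.87. From GFP DOX to Cre DOX the members differed by a ratio of 1.34, and the whole lists by 2.78, so with doxycycline the members differed by less than the whole lists and without it by more. The cover of the members was thus larger in the other 3 lists than in GFP mock.

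**Figure D1:**
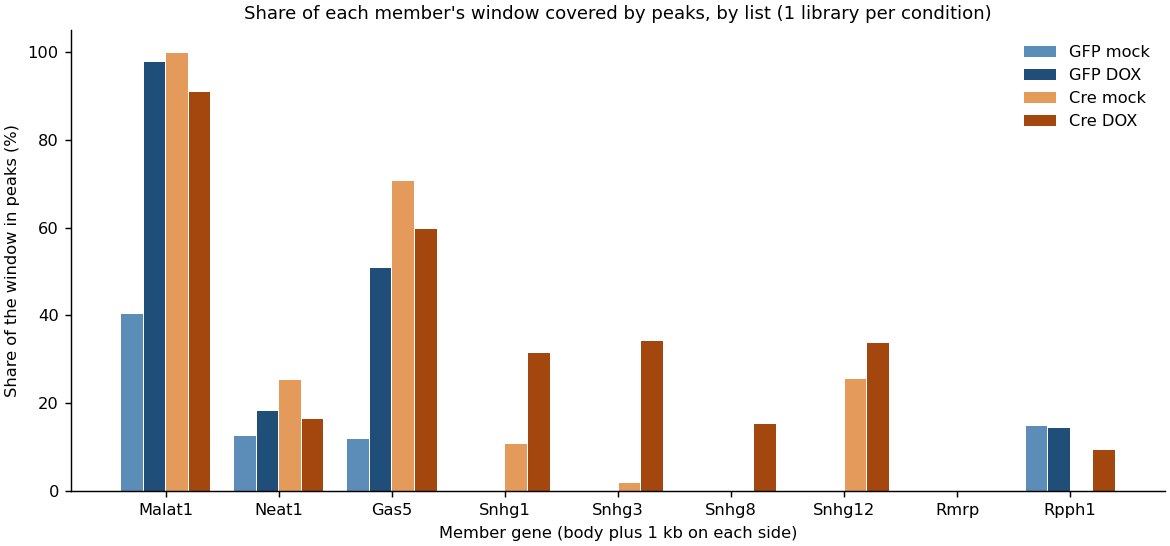
Share of each member's window covered by peaks (vertical axis, %), with 1 bar for each list and no error bars because each condition had 1 library. *Malat1* is covered by 90.9% or more in GFP DOX, Cre mock and Cre DOX, the *Snhg* genes other than *Gas5* have bars in Cre lists only, and *Rmrp* has none.

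*Malat1* had the largest share of its window covered among the members in each list. Its single exon lies at chr19:5795690-5802672 on the minus strand (mm10). In GFP mock it carried 5 separate peaks of 406, 830, 221, 191 and 1973 bp, counted from the 5′ side, with scores of 18, 19, 13, 15 and 22. The score is 10 times the −log10 q-value of the peak, and 22 stood at the 68.0 percentile of that list. In each of the other lists 1 peak covered the whole gene. It was 8856 bp wide with a score of 38 in GFP DOX, 9330 bp with a score of 63 in Cre mock, and 8168 bp with a score of 47 in Cre DOX. These scores stood at the 96.2, 98.4 and 98.2 percentile of their lists. The deposited fold enrichment over local background was 4.52, 5.40 and 4.29 for the 3 wide peaks, and at most 3.64 in GFP mock.

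Coverage on this scale was uncommon. In GFP DOX 15 of 60219 peaks were as wide as the *Malat1* peak or wider, in Cre mock 24 of 91097, and in Cre DOX 30 of 105081. Of the 12356 genes with a window of 5 to 15 kb, 13, 23 and 21 had a body wholly inside peaks in these lists, and 3 did in GFP mock, *Malat1* not among them. In GFP mock peaks covered 46.1% of the *Malat1* body and left its start site bare, the nearest peak beginning at base 220 of the gene. The 22035 bp between *Malat1* and *Neat1* were covered by 6.38%, 8.07%, 7.47% and 2.02% in the 4 lists, so the wide *Malat1* peaks did not continue across the interval.

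The DNA was cut with EcoRI, HindIII, BsrGI, SspI and XbaI before the antibody was added, and a hybrid anywhere on a fragment can pull down all of it. The *Malat1* window holds 11 sites for these enzymes and therefore 12 fragments. The wide peaks touched all 12 and the GFP mock peaks touched 4. The longest fragment ran from base 3576 to base 7437 of the gene and had 3862 bp. In GFP mock 3 of the 5 *Malat1* peaks lay inside this 1 fragment, of which they covered 61.8%, and the assay does not tell whether these 3 are separate sites. No peak was called in GFP mock on the 4 fragments between bases 2108 and 3575, which were wholly covered in each of the other lists.

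**Figure D2:**
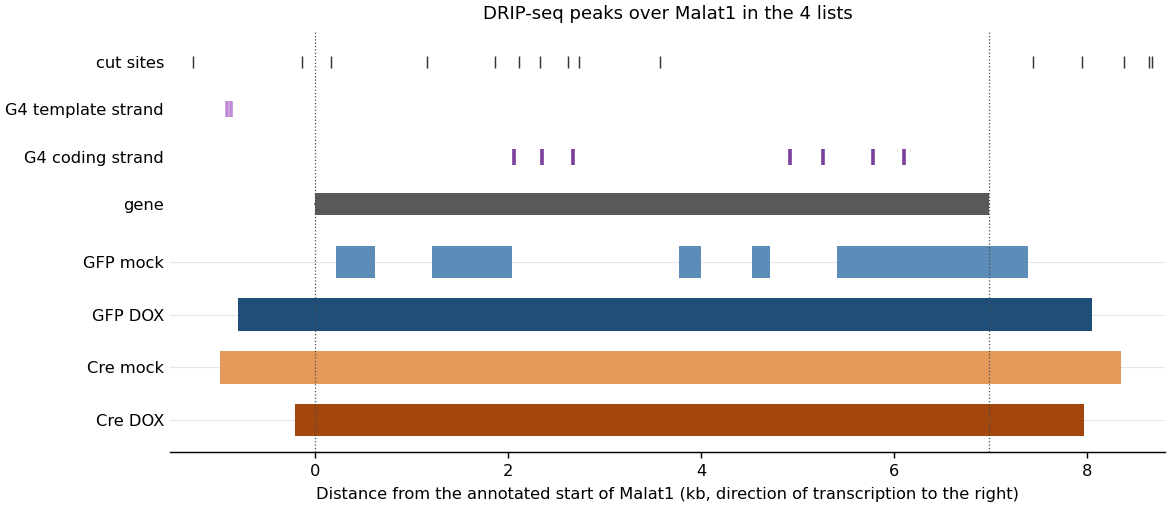
Peaks of each list over *Malat1* by distance from its annotated start (horizontal axis, kb). The grey bar is the single exon, dotted lines are the gene's start and end, purple ticks are predicted G4 stretches by strand and black ticks are recognition sites of the 5 restriction enzymes. GFP mock shows 5 blocks and each other list 1 block that passes both ends of the gene.

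The first 500 bases of *Malat1* had a GC skew of 0.355 on the coding strand, meaning more G than C there, which stood at the 99.1 percentile of all annotated genes. *Neat1* had 0.264 (96.6 percentile) and *Gas5* 0.171 (87.2 percentile). The other 6 members lay between −0.0676 at *Rmrp* (18.0 percentile) and 0.115 at *Snhg8* (74.8 percentile). G4Hunter, which scores runs of G and C in windows of 25 bases, predicted 9 G4 stretches in the *Malat1* window. The 7 within the transcribed part all had their G runs on the coding strand, the strand an R-loop would leave single, and the other 2 lay upstream with G runs on the template strand. Of the 9, peaks of the 4 lists wholly covered 2, 7, 9 and 7. Both upstream stretches were inside the peak in Cre mock alone. The following stretches from the reference genome, with runs of 2 or more G in capitals, show one without a peak in GFP mock and covered elsewhere, both that were covered in all 4 lists, and one of the upstream pair.
Malat1 base 4893 (chr19:5797736-5797780, minus strand): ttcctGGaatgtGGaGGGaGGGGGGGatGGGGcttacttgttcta
Malat1 base 5763 (chr19:5796872-5796910, minus strand): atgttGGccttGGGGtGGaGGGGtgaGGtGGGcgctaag
Malat1 base 6081 (chr19:5796555-5796592, minus strand): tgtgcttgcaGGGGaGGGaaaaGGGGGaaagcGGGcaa
Malat1 upstream (chr19:5803525-5803554, plus strand): gcGGGGGccgcgccaGGGaGGGcGGGGaGG

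The 3′ end of *Malat1* was inside a peak in all 4 lists. RNase P cleaves the primary transcript there and releases mascRNA, a tRNA-like small RNA, while an A-rich tract folded back on U-rich motifs protects the new end of the long RNA. The 3′ end of the long *Neat1* RNA is built the same way, and its tRNA-like part is annotated as *Gm27702*. Both are given with the 100 bases before the cut in lower case and the tRNA-like part in capitals.
Malat1 (chr19:5795924-5796081, minus strand): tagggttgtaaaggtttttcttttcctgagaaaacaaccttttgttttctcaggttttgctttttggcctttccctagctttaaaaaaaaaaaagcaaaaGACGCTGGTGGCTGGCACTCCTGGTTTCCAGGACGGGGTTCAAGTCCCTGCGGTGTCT
Neat1 (chr19:5824652-5824807, minus strand): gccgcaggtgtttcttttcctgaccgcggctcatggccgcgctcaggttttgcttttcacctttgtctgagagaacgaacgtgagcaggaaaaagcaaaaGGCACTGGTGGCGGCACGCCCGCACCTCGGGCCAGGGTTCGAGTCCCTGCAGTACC
The lower-case parts shared 3 runs of at least 11 bases, in the same order: tttcttttcctga, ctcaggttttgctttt and, directly before the tRNA-like part, aaaaagcaaaa. All 158 bases of the *Malat1* sequence were inside a peak in each list. Of the 156 bases at *Neat1*, 130 were inside a peak in Cre mock and 0 in the other lists. The Cre mock peak there was 978 bp wide and had a score of 12, at the 3.42 percentile of its list.

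At *Neat1* (chr19:5824708-5845478, minus strand) the best-scoring peak at the gene lay across the start site in every list. The gene gives a short RNA of 3185 bp and a long one of 20771 bp, and only the long one builds paraspeckles. The 4 lists had 2, 3, 6 and 3 peaks, which covered 12.6%, 18.2%, 25.3% and 16.4% of the window. Of the 6422 genes with a window of 15 to 30 kb, 209, 194, 251 and 388 were covered by at least as large a share. In GFP mock the start peak was 1356 bp wide with a score of 24, and in GFP DOX 8775 bp with a score of 29. In Cre mock it was 4431 bp wide with a score of 62, and in Cre DOX 4186 bp with a score of 57. These scores stood at the 74.5, 91.2, 98.3 and 99.1 percentile of their lists. All 4 reached upstream, by 911, 6509, 3046 and 1948 bases, over the divergent RNA gene *Frmd8os*. Their part in either gene cannot be told apart because DRIP-seq of this kind has no strand. The GFP DOX peak also overlapped an annotated untranslated region, which the other start peaks did not, and the gene of that region was not identified here.

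Beyond the short RNA the lists differed. GFP mock had no peak there. GFP DOX had 1 of 658 bp at bases 11822 to 12479, and Cre mock had a 180-bp peak at bases 12190 to 12369 inside the same stretch. Cre mock had 3 further peaks, at bases 3855 to 5122, 14361 to 14536 and 19824 to 20801. Cre DOX had a 279-bp peak at bases 4079 to 4357, within the first of these, and a 213-bp peak at bases 18805 to 19017, of which 61.5% was repeat-masked. The narrowest peak in the whole Cre DOX list was 213 bp wide. All 4 lists shared 3 stretches at *Neat1*, of 1356, 450 and 364 bp, all within the first 2238 bases or just upstream.

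**Figure D3:**
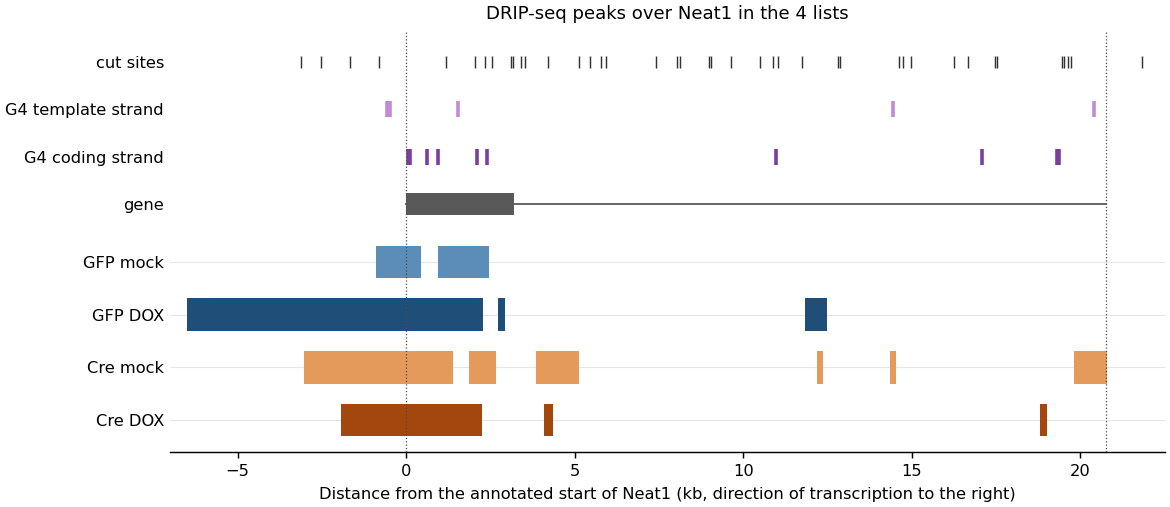
Peaks of each list over *Neat1* by distance from its annotated start (horizontal axis, kb). The thick grey bar is the short RNA and the thin line the long one, purple ticks are predicted G4 stretches by strand and black ticks are restriction sites. Every list has a block across the start, and Cre mock alone has a block at the 3′ end.

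The *Neat1* window had 15 predicted G4 stretches, 10 with G runs on the coding strand and 5 on the template strand. Peaks of the 4 lists wholly covered 7, 8, 10 and 8, and 5 were covered in all 4 lists. Those 5 include the stretches nearest to the start site on each side, which are shown, with runs of G in capitals, because the widest of the 3 stretches that all lists shared spans the start.
Neat1 base 25 (chr19:5845423-5845454, minus strand): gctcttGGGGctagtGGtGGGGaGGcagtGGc
Neat1 next stretch (chr19:5845345-5845374, minus strand): aGGatGGGGGtgcgaGGagaagcGGGGcta
Neat1 upstream (chr19:5845931-5845982, plus strand): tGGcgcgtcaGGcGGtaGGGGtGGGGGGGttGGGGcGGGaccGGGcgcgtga

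*Gas5* (chr1:161034422-161038539, plus strand) was the host gene with peaks in every list, and the only one whose start was covered. Its RNA is a growth-arrest transcript that is itself quickly degraded, and its introns carry box C/D snoRNAs. The start peak was 724 bp wide with a score of 12 in GFP mock, and 3109 bp with a score of 22 in GFP DOX. In Cre mock it was 3379 bp wide with a score of 63, and in Cre DOX 3381 bp with a score of 51. These scores stood at the 1.69, 77.7, 98.4 and 98.7 percentile of their lists, so the GFP mock peak was among the weakest of its list. Cre mock and Cre DOX had a further peak downstream of the gene, of 1167 bp with a score of 18 and of 328 bp with a score of 30. Of the 12356 genes with windows of 5 to 15 kb, 844, 139, 104 and 112 were covered by at least as large a share as *Gas5*.

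The stretch at *Gas5* that all lists shared, chr1:161034223-161034934, is also the 5′ end of *Zbtb37*, a zinc finger gene read the other way. RefSeq gives *Gas5* a transcript that starts at base 180, inside this stretch, and others that start at base 745. The later start was inside a peak in GFP DOX, Cre mock and Cre DOX and was not in GFP mock. Of the 9 genes annotated as snoRNAs within it, peaks of the 4 lists wholly covered 0, 5, 6 and 6. The gene covered in both Cre lists and not in GFP DOX was *Mir5117*, which carries a microRNA name. *Snord78* was among those covered in 3 lists, and *Snord80* and *Snord47* were in no peak. Peaks covered 70.2% of the RefSeq exons and 75.4% of the introns in Cre mock, and 65.0% and 70.1% in GFP DOX. In each list these shares came from a single wide peak that spans exons and introns alike. They therefore cannot tell whether the hybrid lay in the introns that carry the snoRNAs.

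The 4 start peaks of *Gas5* began close to a restriction site. An EcoRI site lies at base −265 and the next site, also EcoRI, at base 2766, and the fragment of 3030 bp between them holds all 13 predicted G4 stretches of the window. The upstream ends of the start peaks were 49, 61, 0 and 12 bases from the first site in the 4 lists. The downstream ends of the 3 wide peaks lay 139, 344 and 362 bases past the second site, on the next fragment. Over all peaks of these lists the median distance from an end to the nearest site was 279, 259, 278 and 247 bases. Peaks covered 97.8%, 100% and 99.4% of the fragment in GFP DOX, Cre mock and Cre DOX and 23.9% in GFP mock. The G4 stretches below, with runs of G in capitals, lie at the start of *Gas5* and were inside a peak in all 4 lists.
Gas5 base 36 (chr1:161034457-161034487, plus strand): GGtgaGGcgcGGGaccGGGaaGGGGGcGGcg
Gas5 base 82 (chr1:161034503-161034546, plus strand): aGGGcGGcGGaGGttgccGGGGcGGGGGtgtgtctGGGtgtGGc
Gas5 base 146 (chr1:161034567-161034596, plus strand): ctgaGGGaGGGGctcgccaaGGGGGcGGGc

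**Figure D4:**
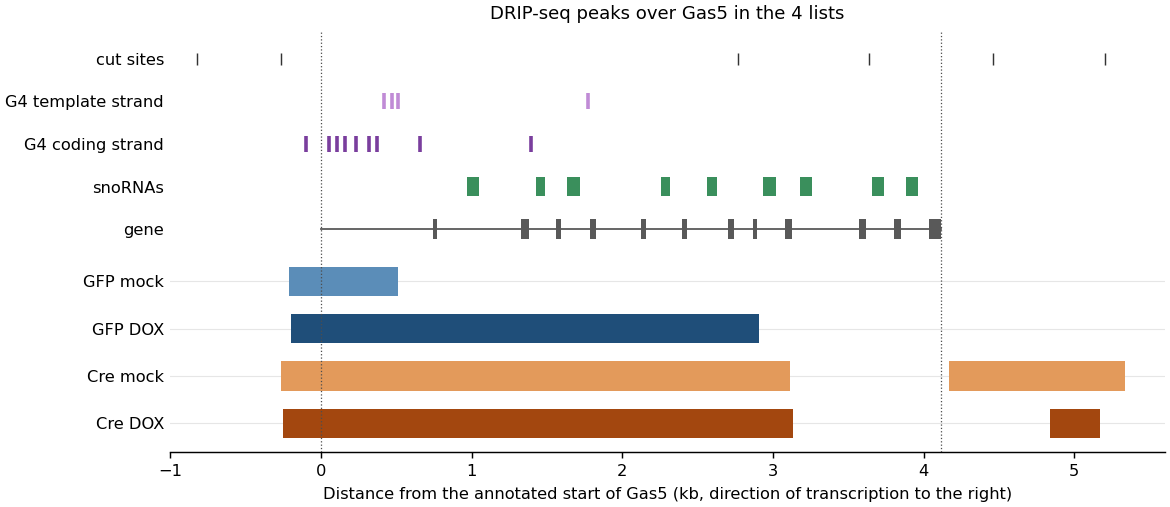
Peaks of each list over *Gas5* by distance from its annotated start (horizontal axis, kb). Grey boxes are the exons of the RefSeq transcript with 12 exons, green boxes are snoRNAs, purple ticks are predicted G4 stretches by strand and black ticks are restriction sites. The 3 wide peaks begin near the EcoRI site at base −265 and end past the one at base 2766.

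The other 4 host genes had peaks in Cre lists and none in a GFP list. At *Snhg12* (chr4:132308623-132311024, plus strand) the main peak was 1048 bp wide with a score of 27 in Cre mock and 1272 bp with a score of 36 in Cre DOX, at the 80.6 and 94.6 percentile of their lists. Both lay in the middle of the gene and left its start bare. They covered 89.8% and 100% of a HindIII fragment of 1167 bp, from base 718 to base 1884. Within it lie 3 of the 4 snoRNAs of the gene, *Snora16a*, *Snora44* and *Snora61*, all of the H/ACA class that guides pseudouridylation, and the fourth, *Snord99*, was in no peak. Each list also had a weaker peak upstream, at different places, with a score of 13 in Cre mock and 14 in Cre DOX, of which 75.5% and 77.5% was repeat-masked. The covered snoRNAs are shown because they lie within the 1048 bases of *Snhg12* under a peak in both Cre lists, which also hold exons. The ACA box is in capitals where it stands 3 bases before the annotated end.
Snora16a (chr4:132309465-132309600, plus strand): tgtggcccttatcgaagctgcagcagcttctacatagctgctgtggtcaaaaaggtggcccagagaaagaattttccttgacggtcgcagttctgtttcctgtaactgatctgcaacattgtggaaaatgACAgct
Snora44 (chr4:132309941-132310069, plus strand): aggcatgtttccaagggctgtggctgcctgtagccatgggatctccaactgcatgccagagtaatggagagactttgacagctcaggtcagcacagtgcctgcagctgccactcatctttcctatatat
Snora61 (chr4:132310240-132310369, plus strand): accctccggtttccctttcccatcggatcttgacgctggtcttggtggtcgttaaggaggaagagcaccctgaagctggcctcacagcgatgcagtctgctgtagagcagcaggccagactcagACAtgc

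At *Snhg1* (chr19:8723475-8726443, plus strand), host of 8 snoRNAs, Cre mock had 1 peak of 530 bp with a score of 12, at the 3.42 percentile. Cre DOX had a 475-bp peak with a score of 18 that overlapped it and a 1085-bp peak with a score of 30 over the end of the gene. The Cre mock peak wholly covered 2 of the snoRNAs and the Cre DOX peaks covered 2 others. At *Snhg8* (chr3:123507552-123508404, minus strand), host of *Snora24* and annotated with 1 exon in RefSeq, the only peak was in Cre DOX, 435 bp wide with a score of 19, and lay over the end of the gene without touching *Snora24*.

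*Snhg3* (chr4:132348014-132353686, minus strand) hosts the H/ACA snoRNAs *Snora73a* and *Snora73b*, and its long annotated form overlaps *Rcc1*, the exchange factor of Ran. Cre mock had 1 peak of 140 bp whose score of 48, at the 96.7 percentile, was high for its width. It lay at bases 2454 to 2593, downstream of the RefSeq transcript of 1754 bp and in an intron of the long form and of *Rcc1*. In Cre DOX the same stretch was part of a 1728-bp peak with a score of 14, which also covered *Snora73b* and 79.4% of the RefSeq exons, and an 892-bp peak with a score of 18 lay further on. That wide peak stood at the 26.4 percentile of its list. The sequence of the Cre mock peak is given in full, in lower case because no part of it was singled out.
Snhg3 (chr4:132351094-132351233, minus strand): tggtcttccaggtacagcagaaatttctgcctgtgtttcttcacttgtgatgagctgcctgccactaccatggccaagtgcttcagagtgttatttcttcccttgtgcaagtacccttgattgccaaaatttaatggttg

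The genes of the catalytic RNAs, both transcribed by RNA polymerase III, differed from each other. *Rpph1* (chr14:50807449-50807767, minus strand) had a peak over its start of 341 bp with a score of 30 in GFP mock and of 332 bp with a score of 17 in GFP DOX. The Cre DOX peak was 213 bp wide with a score of 13. These scores stood at the 86.7, 52.6 and 19.8 percentile. It had none in Cre mock. The Cre DOX peak had the smallest width of its list. *Rpph1* overlaps an exon of *Ccnb1ip1* and lies back to back with *Parp2*, so the peaks of both GFP lists reached 3 genes. The restriction fragment there has 2373 bp, of which the peaks covered between 8.98% and 14.4%. The 69 bases between the RefSeq start of *Rpph1* and the start of *Parp2* are given, since they were wholly inside the peak in both GFP lists, 5 of them were inside the Cre DOX peak and 0 inside one in Cre mock. They are written toward *Rpph1* in lower case.
Rpph1 upstream (chr14:50807772-50807840, minus strand): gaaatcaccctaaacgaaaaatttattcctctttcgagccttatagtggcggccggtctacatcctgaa
*Rmrp* (chr4:43492783-43493063, minus strand) had no peak within 1 kb in any list. Its window has no predicted G4 stretch, and neither has that of *Rpph1*.

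**Figure D5:**
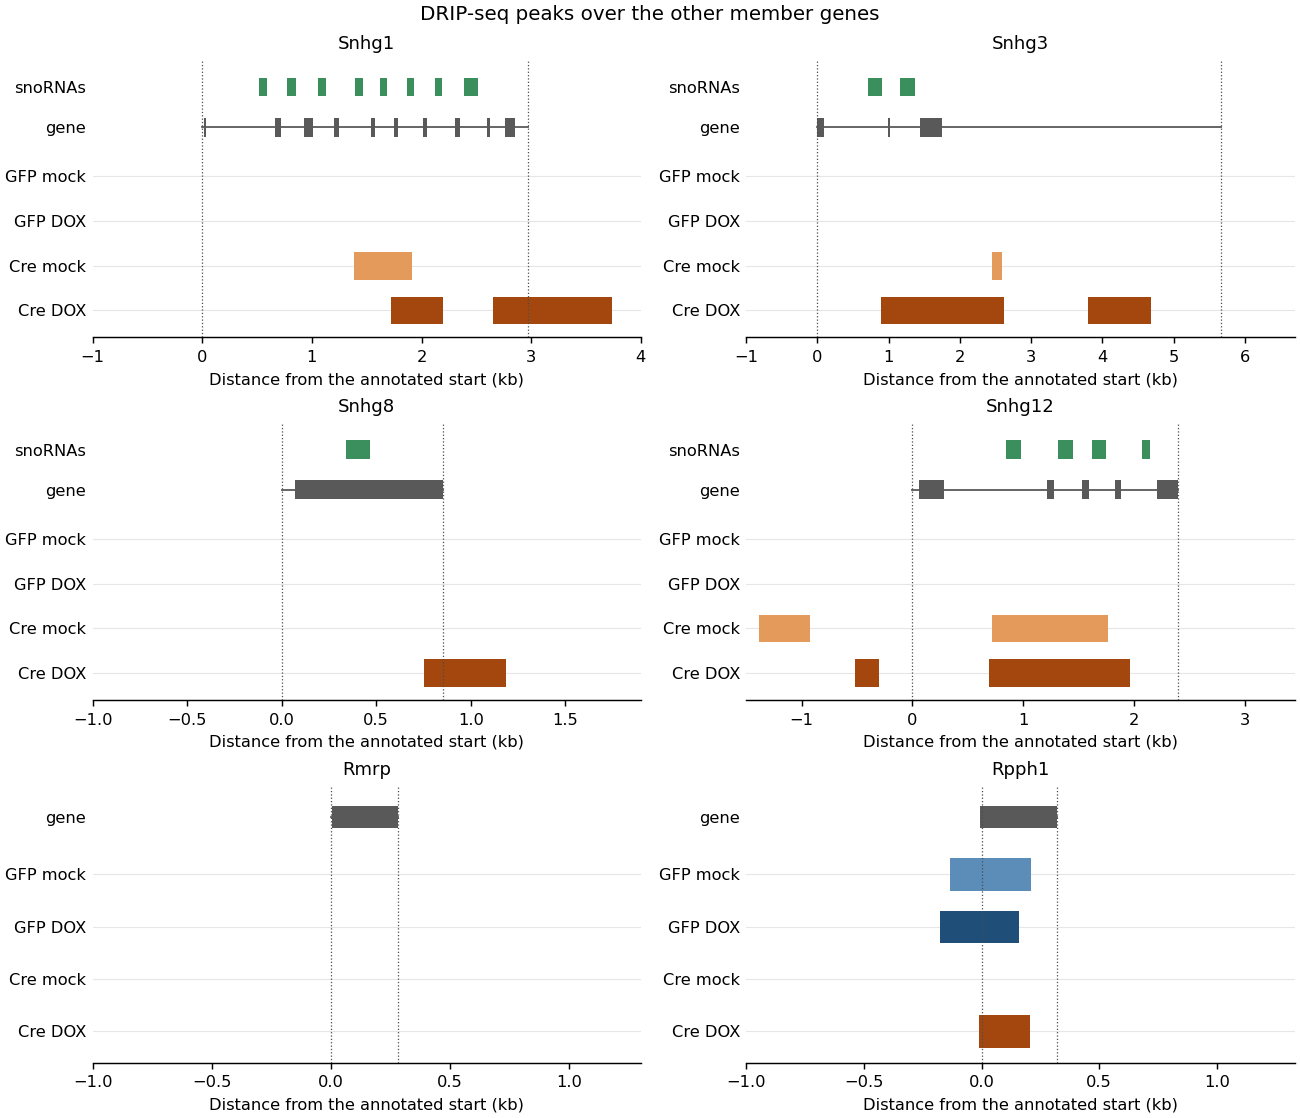
Peaks of each list over *Snhg1*, *Snhg3*, *Snhg8*, *Snhg12*, *Rmrp* and *Rpph1* by distance from the annotated start (horizontal axes, kb, each panel with its own range). Grey boxes are RefSeq exons, the thin line is the annotated body and green boxes are snoRNAs. The panels of the 4 host genes show blocks in Cre mock or Cre DOX and none in GFP lists.

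Set side by side, the deletion comparison without doxycycline gave 3 members with a peak in Cre mock and none in GFP mock, *Snhg1*, *Snhg3* and *Snhg12*, as at 9.7% of all genes. *Rpph1* alone had a peak in GFP mock and none in Cre mock, as at 7.25%. In the comparison with RNaseH1 induction, 0 members had a peak in GFP mock and none in GFP DOX, and 0 had one in Cre mock and none in Cre DOX. Of all genes 11.9% and 9.98% did, and among 9 genes a count of 0 is near such shares. With a −log10 q-value of at least 2 both counts were 1, *Rpph1* in GFP cells and *Snhg3* in Cre cells, and with top-decile peaks the count in Cre cells was 1, also *Snhg3*. The reverse, a peak in DOX and none in mock, held for 0 members in GFP cells and for *Snhg8* and *Rpph1* in Cre cells, as at 4.78% and 6.95% of all genes. Of the peaks at the members, 0 of 9 scored within the highest 10% of their own list in GFP mock, 2 of 6 in GFP DOX, 4 of 13 in Cre mock and 4 of 14 in Cre DOX. They lay at *Malat1* and *Neat1* in GFP DOX, those 2 with *Gas5* and *Snhg3* in Cre mock, and with *Gas5* and *Snhg12* in Cre DOX. Over the 9 genes 24 snoRNAs are annotated, of which 0, 5, 11 and 12 were wholly inside peaks in the 4 lists. Of the 1483 snoRNA genes of the whole annotation 1.28%, 2.9%, 4.86% and 5.6% were, with the 4 lists in the same order of size.

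The genes whose proteins act with these RNAs were counted by the same rule. Of 10 paraspeckle protein genes 5, 8, 9 and 9 had a peak in the 4 lists, with a median window of 20.8 kb. Among the 5 of them with a window of 15 to 30 kb 3, 4, 4 and 4 had one, where 50.5%, 39.3%, 55.6% and 49.2% of all genes in that class did. Of the 5 with a peak in all lists *Hnrnpk* had the highest mean percentile, with best scores of 46, 41, 66 and 70, followed by *Tardbp*, *Sfpq* and *Cpsf6*. Of 8 genes for the core proteins of snoRNA particles 4, 6, 7 and 7 had a peak, with *Nop56*, *Fbl* and *Gar1* in all lists and a median window of 8.78 kb. Among the 5 of them in the class from 5 to 15 kb 4, 4, 5 and 5 had one, where 31.6%, 25.1%, 35.5% and 30.3% of all genes did. Of 10 genes for proteins of RNase P and RNase MRP 4, 5, 6 and 4 had one, with *Pop1* and *Pop5* in all lists and a median window of 11.5 kb. Among the 5 of them in the same class 1, 2, 2 and 3 had one. Of *Elac2* and *Trnt1*, which process the 3′ ends of tRNAs, *Elac2* had a peak in GFP mock and neither had one in the other lists. Of 21 other snoRNA host or nuclear RNA genes listed, 17 were found in the annotation by symbol, and of these 8, 7, 11 and 9 had a peak, with *Zfas1*, *Snhg17* and *Snhg9* in all lists. The best scores at *Zfas1* were 25, 24, 33 and 30, and those at *Snhg17* were 21, 19, 42 and 27. Among the 10 of them with a window under 5 kb 4, 3, 6 and 5 had a peak, where 12.5%, 8.58%, 13.5% and 12.8% of all genes did, and among the 5 with a window of 5 to 15 kb 3, 4, 3 and 3 had one.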

How the data were processed

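DRIP libraries of 4 conditions were used, 1 each. The 4 input libraries were not analysed here. The authors pooled 3 immunoprecipitations per condition, processed single-end reads with the nf-core/chipseq pipeline (BWA, mm10) and called peaks with MACS2 for each library; the lists have the broad format although the command in the methods names narrow peaks. Whether the inputs served as control is not given in the sources used here. The deposited columns hold a score, a fold enrichment (a ratio to local background) and −log10 p-values and q-values. None is normalised between libraries, so percentiles were taken within a list, ties at their mean rank. The lists held 60219 to 105081 peaks and covered 1.18% to 3.27% of the genome. Read depth is unknown here, and since deeper libraries can give more, wider or better joined peaks, widths and counts may differ between lists for that reason.

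Genes came from GENCODE M21, transcripts and sequence from RefSeq (GRCm38.p6). Windows were the gene record plus 1 kb. *Rmrp* has 2 nested records, of which the outer was used. G4 stretches were predicted with G4Hunter (window 25, absolute score at least 1.5). Copies were sought with BLAST 2.17.0 (at least 95% identity over 100 bases): the members had none in unmasked sequence. In repeat-masked sequence, 167 bases of *Malat1*, 150 of *Neat1* and 326 of *Snhg3* had copies. Of the 8 *Malat1* peaks 4 lay over such a stretch, and 0 did at *Neat1* and *Snhg3*. Scripts ran in Python 3.11.15 and were tested on simulated data.

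All 9 members are named. From each other list, genes with a peak in all 4 lists are named, at most 4 by mean percentile, as are the 3 genes nearest to *Malat1*, *Neat1* and *Gas5* in the 4 percentiles, of which 1 near *Gas5* is not reported here. Members and lists were chosen with earlier results of these data known. Alternatives were gene body only, 2 kb, peak midpoint, top-decile peaks, −log10 q-value of at least 2, equal numbers of peaks (60219) and at most 50% repeat-masked.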

Additional observations from a re-analysis of the deposited data

Results flagged for a closer look

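For 4 members the covered bases of the window moved in opposite directions with doxycycline in GFP cells and in Cre cells. Each value rests on 1 library per condition, and the difference was not tested. At *Malat1* the cover differed by 5165 bases in GFP cells (DOX minus mock) and by -798 in Cre cells. At *Neat1* it differed by 1277 and by -2042 bases, at *Gas5* by 2385 and by -670, and at *Rpph1* by -9 and by 213. The direction at *Malat1*, *Neat1* and *Gas5* was thus the same, toward more cover in GFP DOX than in GFP mock and less in Cre DOX than in Cre mock. In Cre cells *Snhg1*, *Snhg3*, *Snhg8* and *Snhg12* went the other way, with 1030, 2480, 435 and 359 more bases in Cre DOX. Those genes had no cover in either GFP list. The *Rpph1* value in Cre cells is a single peak of the smallest width in its list. *Rpph1* had no cover in Cre mock, so its cover in Cre cells could not fall. At *Malat1*, Cre mock already covered 99.8% of the window, so the cover had little room to rise. The *Malat1* body was wholly covered in both Cre lists.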

How the results depend on the processing

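The counts of member genes were recomputed under 7 alternatives, which gave 84 values, of which 68 stayed within 1.5 times the main count and 16 did not. The use of the gene body alone, of 2 kb flanks, of peak midpoints or of peaks at most 50% repeat-masked moved none and left the same genes in all 12 results. A count can stay while its genes change. The same genes remained in 1 of the 12 results with top-decile peaks, in 1 with the q-value minimum and in 4 with equal numbers of peaks. Members in Cre mock and not in GFP mock, *Snhg1*, *Snhg3* and *Snhg12* as reported, were *Malat1*, *Neat1*, *Gas5* and *Snhg3* with top-decile peaks, and *Gas5*, *Snhg3* and *Snhg12* with either of the others. Those in all 4 lists were *Malat1* and *Neat1* with either of the others. With top-decile peaks alone, GFP mock had a peak at 0 members, GFP DOX at 2 and Cre DOX at 4, and 0 members had one in all 4 lists. Under that setting 0 were in GFP mock and not in Cre mock, 2 (*Malat1* and *Neat1*) in GFP DOX and not in GFP mock, 1 (*Snhg3*) in Cre mock and not in Cre DOX, 1 (*Snhg12*) in Cre DOX and not in Cre mock, and 1 (*Gas5*) in both Cre lists and neither GFP list. With a −log10 q-value of at least 2, 5 members had a peak in Cre DOX, 1 (*Rpph1*) was in GFP mock and not in GFP DOX, 1 (*Gas5*) in GFP DOX and not in GFP mock, 1 (*Snhg3*) in Cre mock and not in Cre DOX, 1 (*Snhg1*) in Cre DOX and not in Cre mock, and 1 (*Snhg12*) in both Cre lists and neither GFP list. With equal numbers of peaks, 1 (*Gas5*) was in GFP DOX and not in GFP mock. The alternatives for peaks in both Cre lists and neither GFP list were added after seeing the data. The names change because fewer, stronger peaks remain, so a gene counted as absent from a list may carry a weaker peak there. No paired analysis was possible because each condition had 1 library.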

Other observations

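In Cre DOX 13 of 28 ends were within 100 bases of a site, and 25.3% of all ends in that list were. In the other 3 lists, with GFP mock first and Cre mock last, 6 of 18, 3 of 12 and 7 of 26 were, against 24.3%, 27.1% and 24.4% of all ends. Over the 109 restriction fragments of the member windows, 11, 21, 31 and 40 touched a peak in the 4 lists. Those fragments had a median length of 866, 838, 838 and 622.5 bp, and fragments without a peak one of 426.5, 422.5, 372 and 370 bp. Longer fragments have more room for a peak, and the part of fragment length in these values was not tested.

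The genes whose 4 score percentiles lay nearest to those of *Malat1* were *Eme2* and *Spsb3*, with the same percentiles, at a distance of 1.53, and *Ptprcap* at 3.01. Nearest to *Neat1* were *Scfd2* at 1.64 and *Cyc1* and *Sharpin*, again with the same percentiles, at 2.47. Nearest to *Gas5* were *Snord42a* at 5.0 and *Dhx37* at 5.79. A gene without a peak in a list was set at 0 there, as *Snord42a* was in GFP mock. The distance is Euclidean over the 4 lists in percentile points. Among marker genes of fibroblasts, with a median window of 35.3 kb, 6, 5, 6 and 6 of 10 had a peak in the 4 lists, *Col1a1*, *Vim*, *Fn1* and *Pdgfrb* in all. Among haematopoietic markers 2, 1, 2 and 1 of 4 had one, among epithelial markers 2, 1, 1 and 1 of 3, and among endothelial markers 2, 1, 2 and 3 of 3, with *Pecam1* in all lists, in a window of 98412 bp. Of all genes, whatever their length, 32.6%, 25.5%, 35.0% and 32.0% had one. A peak list does not give expression, and these counts do not mark a cell type.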
